A study of Mus musculus with 32 samples.

Results

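Liver RNA of wild-type (WT) mice in the fed state was compared between a high-fat (HF) and a low-fat (LF) diet. The comparison holds 7 of the 32 mice of the series: the 4 WT HF fed mice and 3 of the 4 WT LF fed mice (replicates 1, 3 and 4). All were male C57BL/6J littermates from a breeding that also gave mice without MCAD (KO), the enzyme of medium-chain fatty acid oxidation encoded by Acadm, and all received a semisynthetic diet for 6 weeks, with palm oil as the fat of the HF diet. The labels give ages of 9, 11, 10 and 11 for the WT HF fed mice and of 9, 12 and 11 for the WT LF fed mice, without a unit. The ages were 10 to 11.5 for the KO HF fed, 10 to 16 for the KO LF fed, 8.5 to 13.5 for the WT HF fasted and 7.5 to 12 for the WT LF fasted mice. RNA came from whole freeze-clamped liver, so that fewer cells of a type and less RNA per cell cannot be told apart. The 8 KO fed mice on both diets and the 8 WT mice fasted for 16 h on both diets serve below as the nearest comparisons.

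WT LF fed replicate 2 was left out because its library stood apart. Its summed level of 16 genes of dividing cells was 529 CPM (counts scaled to the library size after TMM normalization), against 23.7 to 63.5 CPM in the 31 other libraries. Sequencing lane was nearly confounded with diet. WT HF fed replicates 1 to 3 were sequenced on lane 7, whereas WT HF fed replicate 4 and all 3 WT LF fed mice were sequenced on lane 8. Within these mice lane and diet therefore cannot be told apart, except through WT HF fed replicate 4, the HF mouse that shared a lane with the LF mice. That mouse also carried skeletal muscle RNA, as given below. A lane term over the 15 fed mice of both genotypes draws on the KO fed mice as well, with 2 of each lane in each diet group.

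Dietary fat reaches the liver as fatty acids, which hepatocytes burn in mitochondria and peroxisomes, store as triglyceride or export as lipoprotein. Fatty acids activate the nuclear receptor PPARα, which raises transcription of genes for fatty acid uptake and oxidation. A low-fat, carbohydrate-rich diet in the fed state favours the opposite program, de novo lipogenesis, driven by SREBP-1c and ChREBP. A further nuclear receptor, CAR (Nr1i3), controls genes for the oxidation, conjugation and efflux of foreign compounds, bile acids and hormones.

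Gene counts summed to 2476580 to 4048376 in the 7 mice (median 2937139), so that 1 CPM stands for about 3 reads. Acadm had 796 to 1037 counts in the WT HF fed mice and 566 to 948 in the WT LF fed mice, and the 16 KO mice of the series had 26 to 94. Hepatocyte markers were abundant in all 7 mice, and their sum over 10 genes was 50704 to 59765 CPM on the HF diet and 61281 to 65784 CPM on the LF diet. The sum over 9 bile duct and gallbladder genes was 69.6 to 85.6 CPM on the HF diet and 95.6 to 108 CPM on the LF diet. The sum over 10 mitochondrially encoded genes was 89213 to 105490 CPM on the HF diet and 105970 to 120210 CPM on the LF diet. In none of these sums did the diet groups overlap, and the part of these differences in the results below was not tested. WT HF fed replicate 4 carried skeletal muscle RNA, with a sum of 902 CPM over 9 genes against 0.779 to 2.23 CPM in the other HF mice and 2.94 to 6.52 CPM in the LF mice. Heart genes summed to 35.1 CPM in that mouse, to at most 0.895 CPM in the other HF mice and to 15.6 to 18.0 CPM in the LF mice. Across the series this sum was never below 9.04 CPM on lane 8, whereas it reached 0 on lane 7.

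Of 10936 genes tested, 21 passed an adjusted p of 0.05 between the WT HF fed and WT LF fed mice (0.192%). There were 12 genes higher on the HF diet (0.110%) and 9 lower (0.0823%). Adjusted p-values come from the edgeR quasi-likelihood model (Benjamini-Hochberg), fitted to 15 fed mice of both genotypes, and fold changes are log2 values of HF relative to LF with their standard error (SE). At the exploratory threshold of an unadjusted p below 0.01, 148 genes were higher (1.35%) and 114 lower (1.04%). Of all genes tested, 5556 were higher and 5380 lower on the HF diet, and their median log2 fold change was 0.01. In each of the 21 genes the 4 HF mice and the 3 LF mice did not overlap, which held for 4.36% of all genes in the higher and 4.07% in the lower direction. WT HF fed replicate 4 therefore lay on the HF side of every LF mouse in all 21. This follows from the lack of overlap, in genes selected with that mouse included, and is no separate check of lane. With lane as a term in the model 21 of 21 kept their sign and 13 remained past the threshold. The 8 genes that no longer passed were Abcc3, Ttpa, Acnat2, Ephx1, Ppp1r3c, Col27a1, Ugt2b38 and Mir122 (edgeR adjusted p = 0.0637 to 0.307). With the lane 8 mice alone, where replicate 4 is the only WT HF mouse, 6 of the 21 passed. Of the 21, 2 had an unadjusted lane p below 0.05 (Aldh3a2 and Aldh1a1), as had 903 of all 10936 genes tested. The count depended on single mice: it was 5 without WT LF fed replicate 3, 12 without WT LF fed replicate 1, 13 without WT HF fed replicate 4 and 44 without WT HF fed replicate 2. With WT LF fed replicate 2 included, 13 genes passed, 8 of them among the 21. The level in that mouse lay on the LF side in 8 of the 21 genes, on the HF side in 10 (Fabp5, Aldh3a2, Gabbr2, Gpc1, Slc16a5, Gm7536, Col27a1, Ephx1, Ppp1r3c and Ugt2b38) and between the groups in 3.

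**Figure D1:**
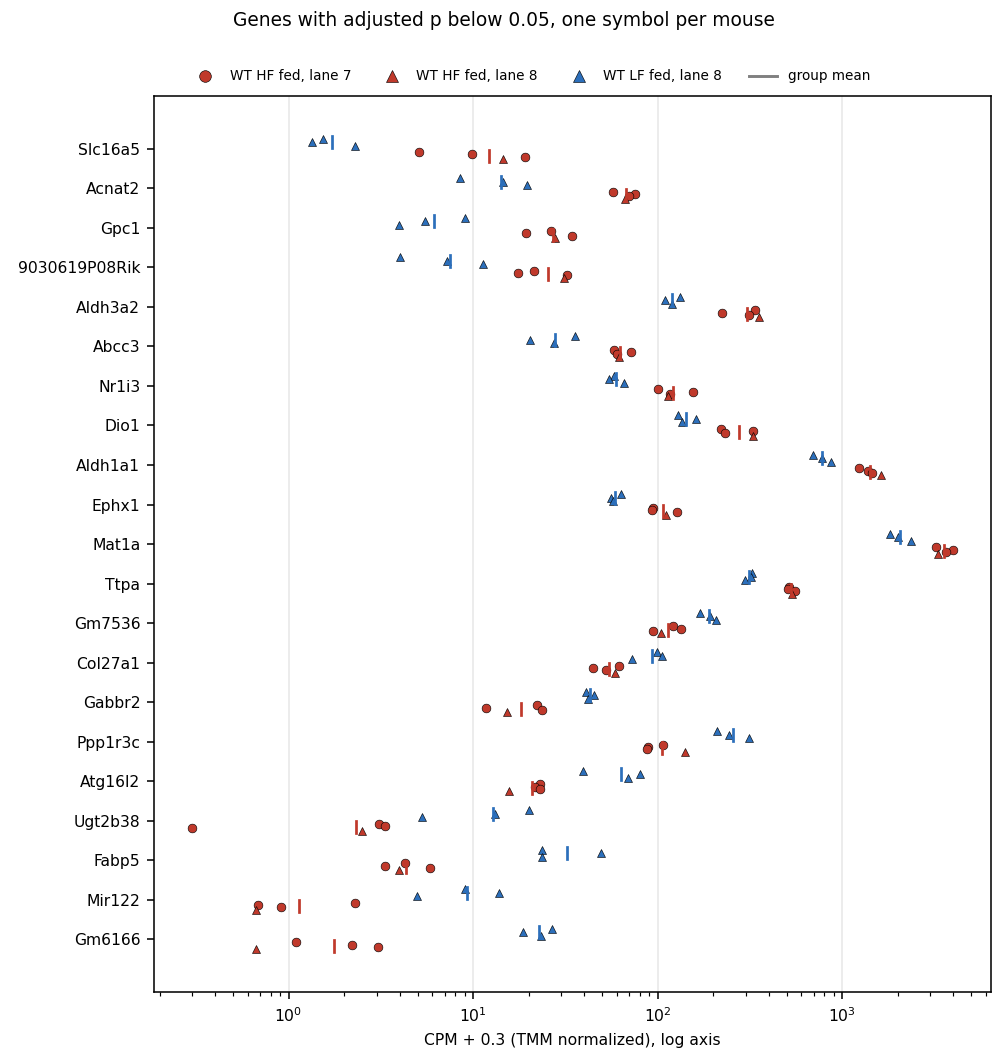
TMM-normalized CPM plus 0.3, on a log axis, of the 21 genes past the threshold (adjusted p below 0.05) in each of the 7 mice, with red for WT HF fed, blue for WT LF fed, circles for lane 7, triangles for lane 8 and vertical bars for group means. The red and blue symbols of a gene do not overlap in any row, the red triangle of WT HF fed replicate 4 included.

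The smallest p was that of Fabp5, a fatty acid-binding protein that carries fatty acids within cells (ENSMUSG00000027533, chr3:10012548-10016607, plus strand). Fabp5 measured 4.0, 3.04, 5.54 and 3.65 CPM in WT HF fed replicates 1 to 4 and 23.4, 48.8 and 23.2 CPM in WT LF fed replicates 1, 3 and 4. It was 7.66-fold lower on the HF diet (log2 fold change -2.94 ± 0.35, edgeR adjusted p = 2.11e-05). All 4 HF mice were low and close together. The left-out WT LF fed replicate 2 measured 4.3 CPM, which is within the HF range. Gm6166 (ENSMUSG00000074280, chr9:57483963-57484371, plus strand), a processed pseudogene nearly identical to Fabp5, moved in the same way. Its levels were 0.799, 1.9, 2.77 and 0.365 CPM on the HF diet and 26.4, 18.3 and 22.9 CPM on the LF diet (log2 fold change -3.87 ± 0.48, edgeR adjusted p = 2.15e-05). Over 409 bases the Gm6166 transcript is 98.289% identical to Fabp5, so that reads of one may have been counted on the other. Summed over Fabp5 and its near copies in the table, the levels were 6.4, 4.95, 9.54 and 4.37 CPM on the HF diet and 53.1, 71.6 and 48.1 CPM on the LF diet, which leaves the direction independent of how the reads were split.

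Aldh3a2 (ENSMUSG00000010025, chr11:61223417-61267464, minus strand), the fatty aldehyde dehydrogenase that turns long-chain aldehydes into fatty acids and a known PPARα target, had the smallest p among the genes that rose. The levels were 338, 223, 310.2 and 354 CPM in the HF mice and 131, 109 and 119.9 CPM in the LF mice, a 2.55-fold rise (log2 fold change 1.35 ± 0.17, edgeR adjusted p = 2.15e-05). The lowest HF mouse, replicate 2, was still above every LF mouse, while the left-out WT LF fed replicate 2 had 263 CPM. Acnat2 (ENSMUSG00000060317, chr4:49379840-49408151, minus strand), a peroxisomal enzyme that joins acyl groups to amino acids and releases CoA, was at 57.2, 75.3, 69.2 and 66.3 CPM on the HF diet and 8.22, 14.2 and 19.3 CPM on the LF diet. It rose 4.88-fold (log2 fold change 2.29 ± 0.39, edgeR adjusted p = 0.0156), with little spread among the HF mice. Slc16a5 (ENSMUSG00000045775, chr11:115462474-115474398, plus strand), a member of the monocarboxylate transporter family, was scarce. It measured 4.8, 9.51, 18.8 and 14.2 CPM on the HF diet against 1.25, 1.04 and 1.99 CPM on the LF diet (log2 fold change 3.03 ± 0.62, edgeR adjusted p = 0.023). The LF values rest on 5, 3 and 6 counts. In the left-out LF mouse it was 35.8 CPM, above every HF mouse, and with that mouse included the log2 fold change was 0.28. An antisense gene, Gm11695, overlaps Slc16a5, and the strand setting of the counting is not given in the sources used here. The same limit holds for Atg16l2, Gpc1 and Aldh1a1 below, which the counted opposite-strand genes Fchsd2, Ankmy1 and Gm6684 overlap.

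Nr1i3 (ENSMUSG00000005677, chr1:171213970-171220701, plus strand), which encodes CAR, rose 2.05-fold. The HF mice had 100.3, 154, 117 and 114 CPM and the LF mice 58, 53.9 and 65.7 CPM (log2 fold change 1.03 ± 0.18, edgeR adjusted p = 0.0067). The opposite-strand gene Tomm40l, chosen after its values were seen because it overlaps Nr1i3, was at 10.8, 4.57, 10.2 and 11.7 CPM and 13.9, 16.3 and 17.3 CPM, lower in the HF mice, and did not pass (edgeR adjusted p = 0.61). Abcc3 (ENSMUSG00000020865, chr11:94343295-94392997, minus strand), an efflux pump of the sinusoidal membrane for glucuronides and bile acids, was at 57.6, 71.5, 59.7 and 61.2 CPM on the HF diet and 35.4, 20.1 and 27.2 CPM on the LF diet. The log2 fold change was 1.17 ± 0.21 (edgeR adjusted p = 0.00895), and the HF mice were again close to each other. Ephx1 (ENSMUSG00000038776, chr1:180976210-181020904, minus strand), the microsomal epoxide hydrolase, measured 93.5, 93.2, 127 and 111 CPM against 62.8, 55.3 and 57.1 CPM (log2 fold change 0.86 ± 0.18, edgeR adjusted p = 0.0334). This call was among the least stable, being lost in 12 of 21 alternative settings. Aldh1a1 (ENSMUSG00000053279, chr19:20492715-20643465, plus strand), which oxidizes retinal to retinoic acid, was at 1234, 1378, 1440.0 and 1615 CPM on the HF diet and 691, 779.8 and 866 CPM on the LF diet (log2 fold change 0.86 ± 0.17, edgeR adjusted p = 0.0156). Ugt2b38 (ENSMUSG00000061906, chr5:87409942-87424203, minus strand), a UDP-glucuronosyltransferase that is higher in male than in female mouse liver, fell. Its levels were 2.8, 3.04, 0 and 2.19 CPM in the HF mice and 19.7, 12.8 and 4.98 CPM in the LF mice (log2 fold change -2.68 ± 0.56, edgeR adjusted p = 0.0339). The value of 0 in WT HF fed replicate 3 allows a level of up to 0.923 CPM, and the call was lost in 13 of 20 alternative settings.

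Further enzymes and carriers of the hepatocyte rose. Dio1 (ENSMUSG00000034785, chr4:107291465-107307169, minus strand), the type 1 deiodinase that forms active thyroid hormone, was at 219, 328, 229.9 and 326 CPM on the HF diet and 129, 160.4 and 135 CPM on the LF diet (log2 fold change 0.97 ± 0.17, edgeR adjusted p = 0.00811). Mat1a (ENSMUSG00000037798, chr14:41105035-41124412, plus strand), which makes S-adenosylmethionine in the liver, rose as well. It had 3233, 3988, 3648 and 3289.8 CPM in the HF mice and 1817, 1992 and 2358 CPM in the LF mice (log2 fold change 0.78 ± 0.15, edgeR adjusted p = 0.0121). Ttpa (ENSMUSG00000073988, chr4:20007938-20030785, plus strand), the carrier that loads vitamin E for export, was at 514, 505, 551 and 532 CPM and 325, 320.2 and 297 CPM (log2 fold change 0.74 ± 0.14, edgeR adjusted p = 0.0133), with little spread in either group.

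Among the other genes, Gpc1 (ENSMUSG00000034220, chr1:92831645-92860779, plus strand), a heparan sulfate proteoglycan of the cell surface, was at 26, 19, 34.2 and 27.3 CPM on the HF diet and 8.72, 5.19 and 3.65 CPM on the LF diet (log2 fold change 2.15 ± 0.40, edgeR adjusted p = 0.0117). The transcribed pseudogene 9030619P08Rik (ENSMUSG00000053168, chr15:75427606-75431829, minus strand) was at 21.2, 17.1, 32 and 30.6 CPM and 3.74, 6.92 and 11 CPM (log2 fold change 1.83 ± 0.36, edgeR adjusted p = 0.0156). Both were scarce on the LF diet. Ppp1r3c (ENSMUSG00000067279, chr19:36731731-36736653, minus strand), which brings protein phosphatase 1 to glycogen and so favours glycogen synthesis, fell. It was at 107, 88.7, 87.4 and 140.3 CPM on the HF diet and 208, 243 and 313 CPM on the LF diet (log2 fold change -1.27 ± 0.24, edgeR adjusted p = 0.0334). The left-out WT LF fed replicate 2 had 37.4 CPM, below every HF mouse, and the call was lost in 10 of 21 alternative settings. Atg16l2 (ENSMUSG00000047767, chr7:101263034-101302251, minus strand), a relative of the autophagy protein ATG16L1, was at 22.8, 21.3, 22.8 and 15.3 CPM against 39.1, 79.9 and 69.1 CPM (log2 fold change -1.60 ± 0.24, edgeR adjusted p = 7.28e-04). This decrease was lost in 1 of 21 alternative settings, the lane 8 mice alone. In the model of 15 WT mice used below for the fasted state, the fed diet effect of Atg16l2 did not pass either (edgeR adjusted p = 0.167). Gabbr2 (ENSMUSG00000039809, chr4:46662305-46991873, minus strand), a subunit of the GABA-B receptor, was at 22, 11.4, 23.4 and 14.9 CPM and 40.6, 45 and 41.8 CPM (log2 fold change -1.24 ± 0.22, edgeR adjusted p = 0.00811). Col27a1 (ENSMUSG00000045672, chr4:63214004-63334991, plus strand), a fibrillar collagen, was at 61.2, 44.5, 52.3 and 58.3 CPM and 99.4, 105 and 72.7 CPM (log2 fold change -0.78 ± 0.16, edgeR adjusted p = 0.0334), a call lost in 14 of 21 alternative settings.

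Mir122, the locus of the hepatocyte microRNA miR-122, had 2.0, 0.38, 0.616 and 0.365 CPM on the HF diet and 8.72, 13.5 and 4.65 CPM on the LF diet (log2 fold change -3.38 ± 0.73, edgeR adjusted p = 0.0375). The HF values rest on 5, 1, 2 and 1 counts. Libraries primed on poly(A) do not measure the mature microRNA, so that these reads stem from longer RNA of the locus. The call was lost in 13 of 20 alternative settings. The processed pseudogene Gm7536 (ENSMUSG00000057036, chr3:24333068-24333511, plus strand) was at 121, 134, 93.9 and 104 CPM and 169, 192 and 207 CPM (log2 fold change -0.75 ± 0.15, edgeR adjusted p = 0.026). It is 100% identical to the ribosomal protein gene Rpl27a over 444 bases, and its value is uncertain for that reason. Carmil1, the gene next in rank among those lower on the HF diet, was at 26.4, 19.8, 14.2 and 9.11 CPM and 38.6, 56 and 27.2 CPM and did not pass (edgeR adjusted p = 0.0525).

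The RefSeq promoter table of GRCm38.p6, with 250 bases before and 50 after the RefSeq start of each gene, held 6 of the 12 higher and 5 of the 9 lower genes. An E-box (CACGTG, on either strand the same letters), the core of sites bound by clock and glucose-responsive factors, was in 2 of the 6 higher promoters (33.3%), in 1 of the 5 lower promoters (20%, Ppp1r3c) and in 999 of 8336 promoters of all genes tested (12%). The 2 promoters of higher genes are shown because Aldh3a2 and Nr1i3 are members of the lipid oxidation and drug metabolism lists, with the E-box in capitals. The Aldh3a2 window lies wholly within the span given above for that gene, so that the RefSeq start used is not the outer start of that span.
Aldh3a2, chr11:61267137-61267436, minus strand: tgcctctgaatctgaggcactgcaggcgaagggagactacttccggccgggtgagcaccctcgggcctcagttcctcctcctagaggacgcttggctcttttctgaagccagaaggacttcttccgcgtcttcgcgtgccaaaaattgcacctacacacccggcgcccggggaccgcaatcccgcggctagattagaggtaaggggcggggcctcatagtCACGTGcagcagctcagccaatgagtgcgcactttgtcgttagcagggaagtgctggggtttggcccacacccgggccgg
Nr1i3, chr1:171213720-171214019, plus strand: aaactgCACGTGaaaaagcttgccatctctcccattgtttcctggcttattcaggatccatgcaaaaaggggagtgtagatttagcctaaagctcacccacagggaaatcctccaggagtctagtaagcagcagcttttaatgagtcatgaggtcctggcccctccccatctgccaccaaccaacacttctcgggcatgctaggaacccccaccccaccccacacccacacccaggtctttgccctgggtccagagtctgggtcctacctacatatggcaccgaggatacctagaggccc
A sterol regulatory element (TCACNCCAC) was in none of the 11 promoters and in 124 of the 8336 (1.49%). A direct repeat of AGGNCA with 1 base between both repeats, the form bound by PPARα with RXR, was in none of the 11 and in 30 of the 8336 (0.36%). These counts describe letters in a short window only.

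Genes of fatty acid oxidation were mostly higher on the HF diet. Of 28 genes tested of peroxisomal and omega oxidation and other PPARα targets, 23 were higher and 5 lower, with a median log2 fold change of 0.47 against 0.01 for all genes. Aldh3a2 passed the threshold, and 10 genes, all higher, had an unadjusted p below 0.01, which held for 1.35% of all genes in the higher direction. Cyp4a14, a fatty acid omega-hydroxylase, was at 1730.3, 993, 2450.4 and 886 CPM on the HF diet and 205, 151 and 55.1 CPM on the LF diet, without overlap but with wide spread (log2 fold change 3.46 ± 1.02, edgeR adjusted p = 0.343). The related Cyp4a10 was at 241, 151, 248.7 and 230.0 CPM and 86.4, 56 and 49.1 CPM (log2 fold change 1.76 ± 0.55, edgeR adjusted p = 0.397). Vnn1, a pantetheinase that releases the precursor of CoA, was nearest to the threshold among those that did not pass. It was at 35.6, 38.4, 55.1 and 44.1 CPM on the HF diet and 22.2, 13.1 and 12.6 CPM on the LF diet (log2 fold change 1.42 ± 0.33, edgeR adjusted p = 0.093). Peroxisomal Acaa1a was at 133, 107, 136 and 112 CPM and 89.7, 68.1 and 86 CPM, and Hsd17b4 at 296, 238, 285 and 344 CPM and 227, 199.5 and 198 CPM. Neither passed.

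Of 26 genes tested of mitochondrial β-oxidation and ketogenesis, 25 were higher and 1 lower (median log2 fold change 0.25), and none passed the threshold. The 5 with an unadjusted p below 0.01 were Cpt1a, Acadm, Hadh, Eci1 and Eci2, all higher (1.35% of all genes in that direction). Acadm, which the KO mice lack, was at 339.7, 303, 319 and 355 CPM on the HF diet and 236, 196 and 196 CPM on the LF diet (log2 fold change 0.65 ± 0.16, edgeR adjusted p = 0.0846). Its groups did not overlap. Hadh, which acts at a later step of the spiral, was at 731, 630.5, 789 and 794 CPM and 509.6, 490.4 and 559 CPM (log2 fold change 0.50 ± 0.15, edgeR adjusted p = 0.233). Cpt1a, the gate for long-chain fatty acids into mitochondria, was at 246, 177, 259 and 277 CPM and 191, 164 and 162 CPM, with WT HF fed replicate 2 inside the LF range (log2 fold change 0.48 ± 0.15, edgeR adjusted p = 0.274).

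**Figure D2:**
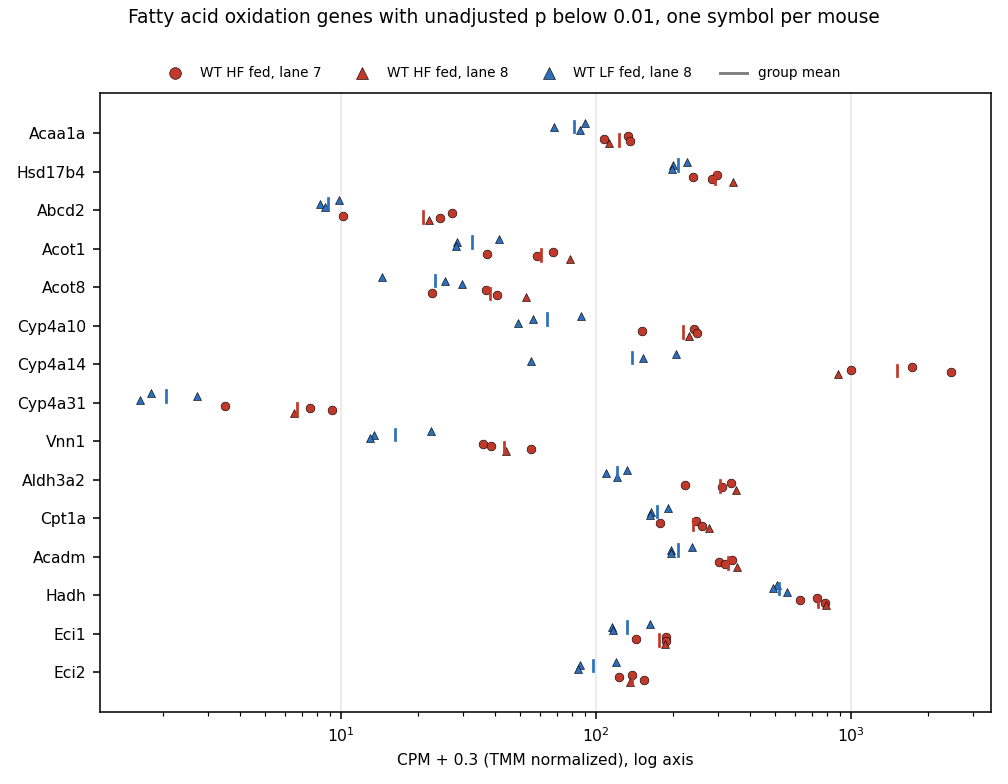
TMM-normalized CPM plus 0.3, on a log axis, of the genes of the mitochondrial and peroxisomal oxidation lists with an unadjusted p below 0.01, in each of the 7 mice, with red for WT HF fed, blue for WT LF fed, circles for lane 7, triangles for lane 8 and vertical bars for group means. Cyp4a14 has the widest gap, from at most 205 CPM on the LF diet to at least 886 CPM on the HF diet, and Cpt1a is among the genes in which single HF mice reach into the LF range.

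In the list of lipid droplet and lipid uptake genes, 23 of 28 were higher and 5 lower (median log2 fold change 0.19). Fabp5 was the member that passed, and it was lower. The fatty acid transporter Cd36 was at 43.2, 48.7, 102 and 64.5 CPM on the HF diet and 24.7, 14.2 and 35.5 CPM on the LF diet (log2 fold change 1.38 ± 0.37, edgeR adjusted p = 0.248). Triglyceride and phospholipid synthesis was split, with 11 of 21 genes higher and a median of 0.04. Apolipoproteins and VLDL assembly were split as well, with 14 of 28 higher and a median of -0.00036. The HDL protein gene Apom was at 155, 230.2, 164 and 169.9 CPM and 256, 277 and 272 CPM (edgeR adjusted p = 0.121). Angptl8, an insulin-responsive inhibitor of lipoprotein lipase, was at 22.4, 12.6, 23.7 and 11.7 CPM and 49.8, 36 and 81.4 CPM (edgeR adjusted p = 0.29). In neither gene did the groups overlap.

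Of 23 genes of de novo lipogenesis, 3 were higher and 20 lower on the HF diet (median log2 fold change -0.50), and none passed the threshold. Scd1, a stearoyl-CoA desaturase, was at 6709, 294, 8864 and 6058 CPM on the HF diet and 12680.0, 10796 and 16380.0 CPM on the LF diet (log2 fold change -1.28 ± 0.77, edgeR adjusted p = 0.802). Fatty acid synthase, Fasn, was at 1014, 134, 2024 and 766 CPM and 867, 2931 and 2566 CPM (log2 fold change -1.11 ± 0.72, edgeR adjusted p = 0.821). Acly, which supplies cytosolic acetyl-CoA, was at 282, 112, 641 and 272 CPM and 379.9, 872 and 765 CPM. WT HF fed replicate 2 was the lowest mouse in each of these genes. The median of the list was -0.34 without it, -1.16 without WT HF fed replicate 3 and -0.26 with WT LF fed replicate 2 included. Scd2, a paralog of Scd1, had an unadjusted p below 0.01 at 6.4, 3.8, 3.08 and 5.47 CPM and 8.72, 15.2 and 11.3 CPM (edgeR adjusted p = 0.274). Cholesterol synthesis and uptake had 5 of 25 genes higher and 20 lower (median log2 fold change -0.35), and the median was -0.09 without WT HF fed replicate 2 and -0.12 without WT LF fed replicate 3. With a lane term it was -0.04. Scap, the escort of the SREBP factors, was at 86.7, 119, 109 and 106 CPM and 124, 168 and 166 CPM (edgeR adjusted p = 0.262). The NADPH sources had 2 of 12 genes higher (median -0.11), with none at an unadjusted p below 0.01.

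Carbohydrate genes showed no common direction. Glycolysis and fructose metabolism had 9 of 20 genes higher (median log2 fold change -0.05), and gluconeogenesis with insulin-FoxO targets had 12 of 23 higher (median 0.03), with Ppp1r3c past the threshold. Amino acid breakdown and the urea cycle had 29 of 40 higher (median 0.13), with Mat1a past the threshold. Gpt, an alanine aminotransferase, was at 136, 125, 142 and 156 CPM on the HF diet and 89.4, 102 and 118 CPM on the LF diet (edgeR adjusted p = 0.335).

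Drug-metabolizing Cyp1, Cyp2 and Cyp3 genes with their regulators had 22 of 31 higher (median log2 fold change 0.16), and Nr1i3 was the member that passed. Cyp2e1, which oxidizes ethanol and small molecules, was at 2523, 3322, 1979.9 and 2559 CPM on the HF diet and 1696, 1638 and 1863 CPM on the LF diet (log2 fold change 0.58 ± 0.15, edgeR adjusted p = 0.115). Cyp2c38 was at 36, 49.5, 54.8 and 48.5 CPM and 20.2, 15.2 and 13.9 CPM (edgeR adjusted p = 0.286), and Cyp2a5 at 279, 175, 257 and 184 CPM and 63.3, 66.7 and 124 CPM (edgeR adjusted p = 0.306). At an unadjusted p below 0.01, 7 members were higher and 1 lower. The lower one was Cyp2c70, at 331, 553, 220 and 462 CPM and 754, 696 and 628 CPM, as scaled over the 15 WT mice. These Cyp genes have close paralogs, between which reads may have been split. Phase II conjugation had 27 of 38 genes higher (median 0.13), with Ephx1 higher and Ugt2b38 lower past the threshold. Gstk1, a glutathione transferase of mitochondria and peroxisomes, lay just outside it at 186, 174, 180.3 and 186 CPM and 95.2, 123 and 127 CPM (log2 fold change 0.66 ± 0.15, edgeR adjusted p = 0.0525). Bile acid synthesis and transport had 19 of 27 higher (median 0.11), with Abcc3 past the threshold. The uptake carrier Slco1a4 was at 54.8, 68.5, 38.8 and 37.5 CPM and 16.4, 32.5 and 17.9 CPM (edgeR adjusted p = 0.121), whereas Slco1a1 was at 514, 475, 244 and 370.0 CPM and 646, 595 and 539.9 CPM (edgeR adjusted p = 0.277), in the opposite order. With WT LF fed replicate 2 included, the medians were 0.29 for these Cyp genes, 0.26 for phase II conjugation and 0.29 for bile acid genes. NRF2 and glutathione genes had 14 of 20 higher (median 0.09), and none passed.

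Genes that are higher in male than in female mouse liver under pulsatile growth hormone were mostly lower on the HF diet. Of 26 such genes 1 was higher and 25 lower (median log2 fold change -0.69), with Ugt2b38 past the threshold. An unadjusted p below 0.01 was found in 7, all lower, and in 1.04% of all genes in the lower direction. The median was -0.29 with WT LF fed replicate 2 included. The omega-hydroxylase Cyp4a12b was at 77.9, 55.9, 32.3 and 51 CPM on the HF diet and 182, 92 and 155 CPM on the LF diet (log2 fold change -1.41 ± 0.33, edgeR adjusted p = 0.191). Hsd3b5, of steroid metabolism, was at 171, 163, 55.7 and 134 CPM and 306, 275 and 233 CPM (log2 fold change -1.06 ± 0.33, edgeR adjusted p = 0.375). In both the groups did not overlap. Serpina1e, which did not pass, was at 1124, 4934, 206 and 1170.5 CPM and 4359, 4966 and 3437 CPM, with WT HF fed replicate 2 at the LF level. Of 36 listed genes that are higher in female liver, 31 were in the counts and only 16 were tested. Cyp2b13, Cyp2a4 and Cyp2c40 were among those not tested. Of the 16 tested, 14 were higher and 2 lower (median 0.84). That median was 0.18 with WT LF fed replicate 2 included and 1.31 over the members with 10 counts in every mouse. Of these 16, 7 are also members of the lipid lists (median 1.26), and among the 9 others 8 were higher (median 0.63). None passed. The growth hormone and IGF1 axis itself had 5 of 13 genes higher (median -0.09). Igf1 was at 984, 804, 805 and 788 CPM and 1147, 849 and 844 CPM (edgeR adjusted p = 0.886).

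Stress and inflammation lists held no gene past the threshold. Acute phase proteins had 19 of 25 genes higher (median log2 fold change 0.29), yet the 3 fibrinogen genes were lower. With WT LF fed replicate 2 included the median was 0.066. Fga was at 2446, 3306, 2720.0 and 2901 CPM on the HF diet and 4137, 3914 and 3935 CPM on the LF diet (log2 fold change -0.49 ± 0.12, edgeR adjusted p = 0.104), without overlap. Saa4, a constitutive serum amyloid A, was at 486, 591, 414 and 347 CPM and 279, 239 and 340.4 CPM (log2 fold change 0.68 ± 0.17, edgeR adjusted p = 0.115). The unfolded protein response had 9 of 25 higher (median -0.08). Immediate early and heat shock genes had 8 of 17 higher (median -0.33), a median that was 0.17 without WT LF fed replicate 4 and -0.78 without WT LF fed replicate 1. Egr1, an immediate early factor, was at 8.79, 25.5, 19.4 and 32.4 CPM and 65.3, 112 and 174 CPM (edgeR adjusted p = 0.334). The circadian clock had 10 of 18 higher (median 0.10), a median that was -0.16 without WT LF fed replicate 1, 0.37 without WT LF fed replicate 3 and -0.04 without WT HF fed replicate 3. Mitochondrially encoded genes had 1 of 9 higher (median -0.18).

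**Figure D3:**
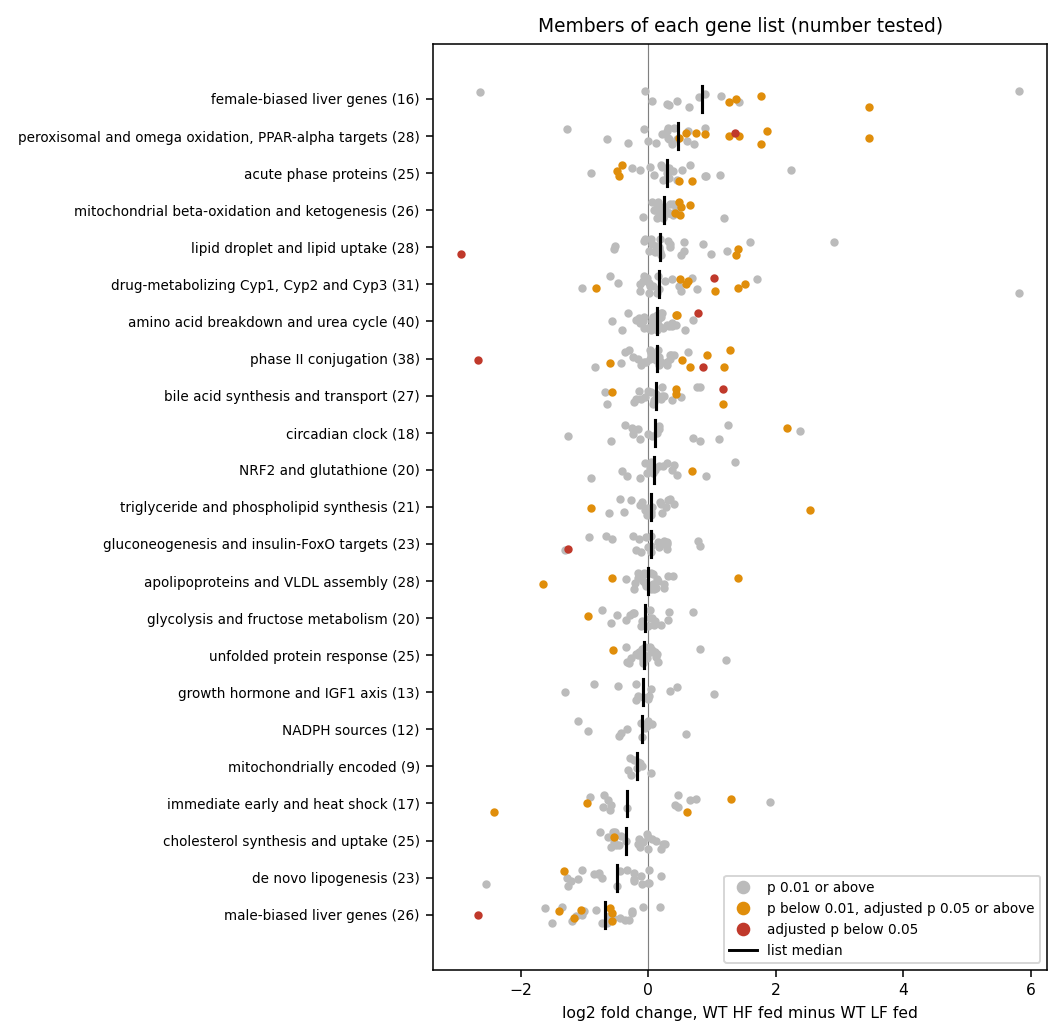
Log2 fold change of WT HF fed relative to WT LF fed for the tested members of the 23 gene lists (number in brackets), one symbol per gene, ordered by the median of each list. The lists of female-biased liver genes and of peroxisomal and omega oxidation are highest (medians 0.84 and 0.47), and those of male-biased liver genes and de novo lipogenesis are lowest (medians -0.69 and -0.50).

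In the KO fed mice, which had 2 mice of each lane in each diet group and share no mouse with the WT comparison, 45 of 10936 genes passed (0.411%). Both comparisons came from the same model and share its estimate of the spread of each gene, so that the lists are not independent. Of these 45, 10 were among the 21 WT genes, which is 47.6% of the WT and 22.2% of the KO list. The 10 genes were Fabp5, Gm6166, Aldh3a2, Atg16l2, Abcc3, Aldh1a1, 9030619P08Rik, Slc16a5, Gm7536 and Ppp1r3c. Fabp5 was at 4.73, 4.14, 1.86 and 4.98 CPM in KO HF fed replicates 1 to 4 and at 22.1, 13.5, 25.9 and 20.9 CPM in KO LF fed replicates 1 to 4 (log2 fold change -2.40 ± 0.34, edgeR adjusted p = 4.09e-04). Aldh3a2 was at 232, 288, 318 and 281 CPM and 106, 114, 105 and 161 CPM (log2 fold change 1.2 ± 0.15, edgeR adjusted p = 1.03e-04). In both genes the KO diet groups did not overlap. Of the 21 WT genes, 20 had the same sign in KO (56.1% of all genes did), and in 12 the KO diet groups did not overlap in that direction, which held for 2.83% of all genes in the higher and 2.95% in the lower direction. The absolute log2 fold change was smaller in KO in 19 of the 21, the WT list having been chosen for its WT effect.

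No gene passed an adjusted p of 0.05 for a diet effect that differed between WT and KO (edgeR, 0 of 10936; 523 at an unadjusted p below 0.05; 1 by DESeq2). Of the 21 genes, 7 had an unadjusted p below 0.05 for the difference. Gabbr2, the gene with the opposite sign, was at 27.3, 33.1, 28.2 and 26.9 CPM in KO HF fed mice and 23.4, 21.9, 30.5 and 23.2 CPM in KO LF fed mice (difference -1.45, 95% confidence interval -2.08 to -0.83, edgeR unadjusted p = 4.85e-05). Acnat2 was at 13.8, 33.5, 33.7 and 15.6 CPM and 19.4, 19.7, 6.75 and 22.8 CPM, with overlapping groups (difference 1.80, 95% confidence interval 0.70 to 2.90, edgeR unadjusted p = 0.0031). Ephx1 was at 79.3, 87.3, 117 and 126 CPM and 89.3, 107, 60 and 89.4 CPM (difference 0.61, 95% confidence interval 0.11 to 1.11, edgeR unadjusted p = 0.0185). KO HF fed replicate 1 carried RNA of skeletal muscle and acinar pancreas (1679.8 and 2562 CPM over the lists), and without it 23 genes passed in KO. The list medians in KO were 0.60 for peroxisomal and omega oxidation, 0.35 for mitochondrial β-oxidation, -0.22 for de novo lipogenesis, -0.23 for male-biased and 0.98 for female-biased genes, all of the same sign as in WT. Of the 23 lists, 18 had the same sign of the median in WT and KO. The 5 of opposite sign were acute phase proteins (-0.18 in KO), mitochondrially encoded genes (0.08), the growth hormone and IGF1 axis (0.15), glycolysis and fructose metabolism (0.02) and gluconeogenesis with insulin-FoxO targets (-0.07). Differences between list medians were not tested.

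**Figure D4:**
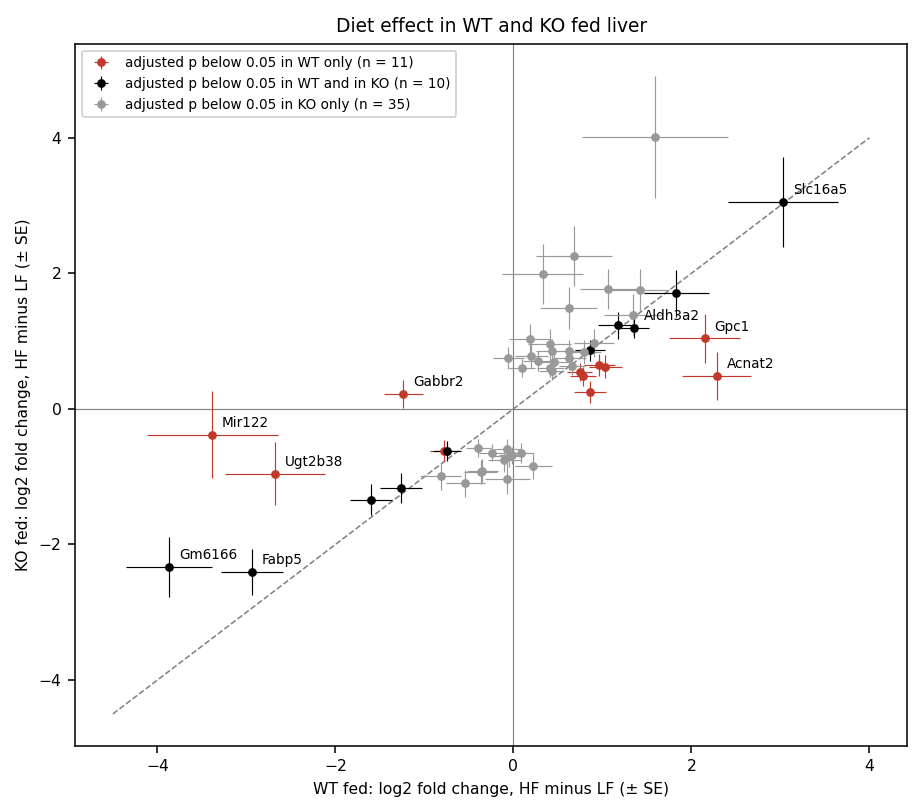
Log2 fold change of HF relative to LF in WT fed mice (x axis) and in KO fed mice (y axis) with SE bars, for genes past an adjusted p of 0.05 in WT, in KO or in both. Gabbr2 is the WT gene with the opposite sign in KO, and Fabp5, Gm6166 and Slc16a5 lie farthest from 0 on both axes among the 10 shared genes.

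The diet effect in fed WT mice was set against that in fasted WT mice in a model of 15 WT mice. In both fasted WT groups replicates 1 and 2 were on lane 7 and replicates 3 and 4 on lane 8. Lane was thus nearly confounded with diet in the fed mice only. A difference between both effects therefore cannot be fully told apart from the lanes of the fed mice. Among the HF fasted mice, replicate 2 stood apart in some lipid genes, named after their values were seen. Its Cyp4a14 was at 1424 CPM against 5099.6 to 11853 CPM in the other HF fasted mice, and its Gpat3 at 2.65 CPM against 15.9 to 21.1 CPM. A difference between both effects passed in 33 of 11041 genes (0.299%), of which 5 are among the 21: Acnat2, Mat1a, Slc16a5, Ttpa and Nr1i3. In this fit 194 genes passed for diet in the fasted state and 13 in the fed state. Acnat2 had 49.1, 44.3, 32.8 and 23.3 CPM in the WT HF fasted mice and 62, 47.7, 49.1 and 34.8 CPM in the WT LF fasted mice, where the fed LF mice alone were low (fed minus fasted effect 2.65 ± 0.35, edgeR adjusted p = 1.92e-04). Mat1a had 6037, 3342, 6510.1 and 4773 CPM in the HF fasted mice and 20666, 18743, 10325 and 13159 CPM in the LF fasted mice. Its diet effect was 0.78 ± 0.22 fed and -1.61 ± 0.21 fasted (edgeR adjusted p = 0.323 fed and 2.36e-04 fasted), so that the fed effect did not pass in this fit. The difference between both effects did (difference 2.39 ± 0.30, edgeR adjusted p = 2.54e-04). Slc16a5 had 15.8, 8.71, 18.7 and 17.1 CPM in the HF fasted mice and 40.9, 28.7, 10.4 and 36.6 CPM in the LF fasted mice (difference 3.996 ± 0.67, edgeR adjusted p = 0.00736). Nr1i3 had 256, 198, 209 and 248 CPM and 189.6, 239.9, 247 and 275 CPM, all above the fed mice (difference 1.10 ± 0.23, edgeR adjusted p = 0.0271). Ttpa had 732, 558, 641 and 671 CPM and 811, 699, 746 and 841 CPM (difference 0.99 ± 0.19, edgeR adjusted p = 0.0111). In the opposite direction, the male-biased Hsd3b5 was at 59.9, 194, 117 and 88.5 CPM in the HF fasted mice and 6.38, 8.49, 7.38 and 9.41 CPM in the LF fasted mice. It rose on the HF diet in the fasted state, whereas its fed effect of -1.06 ± 0.38 did not pass (edgeR adjusted p = 0.61; difference -4.89 ± 0.59, edgeR adjusted p = 0.00523). The CoA diphosphatase gene Nudt7 was at 389, 553, 455 and 455 CPM and 179, 121, 135 and 207 CPM (difference -2.10 ± 0.26, edgeR adjusted p = 9.14e-05). With WT LF fed replicate 2 included, 4 genes passed for this difference, and the count was 16 without WT LF fed replicate 1 and also without replicate 3, 19 without WT HF fed replicate 3, 20 without WT LF fed replicate 4 and 21 without WT HF fed replicate 1. Of the fasted mice, left out in turn as alternatives chosen after seeing the data, WT HF fasted replicate 2 gave 21, WT LF fasted replicate 1 gave 15 and WT LF fasted replicate 3 gave 73.

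**Figure D5:**
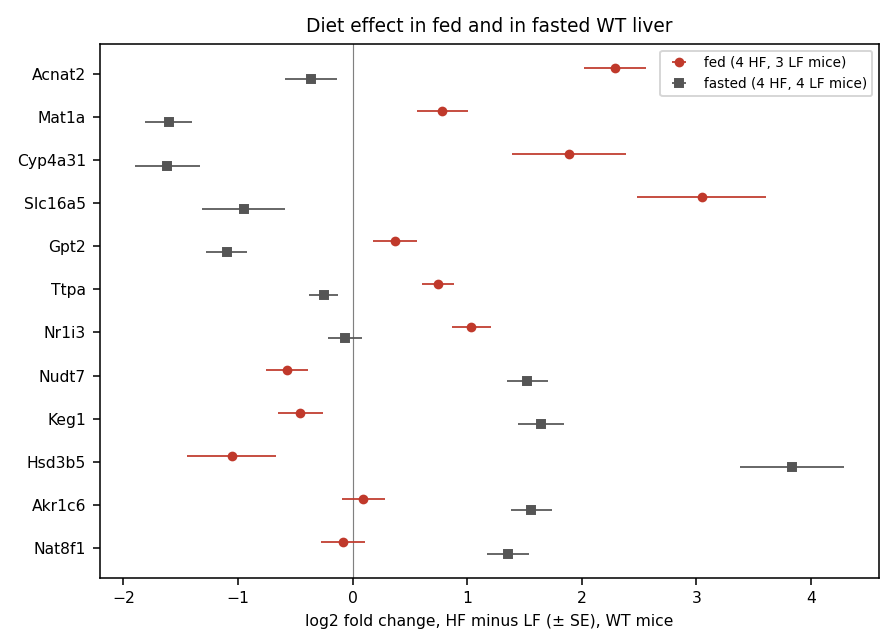
Log2 fold change of HF relative to LF with SE bars in WT mice, circles for the fed state (4 HF and 3 LF mice) and squares for the fasted state (4 HF and 4 LF mice), for 12 genes with a difference between the states at an adjusted p below 0.05. In the upper genes the fed effect lies above the fasted effect, by 3.996 for Slc16a5, and in the lower genes it lies below, with a difference of -4.89 for Hsd3b5.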

How the data were processed

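RNA of freeze-clamped mouse liver was sequenced from 3′ poly(A)-primed libraries, single-end. The authors mapped reads to GRCm38 with HISAT 0.1.5, used SAMtools 1.2 and counted reads per gene with HTSeq 0.6.1p1 (union mode). As deposited, the counts cover 20076 genes in 32 mice and are not normalized. The annotation release differs between the sources used here, and the strand setting is not given in them. Symbols and positions are from GENCODE vM21 on the same build (19918 identifiers matched).

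Groups, replicate numbers and lanes were taken from the labels. Each replicate is its own mouse. The labels place 16 libraries on each lane, whereas the supplementary methods state another number. Genes were kept by filterByExpr, scaled by TMM and tested with edgeR 4.0.16 in R 4.3.3 (robust quasi-likelihood F test, Benjamini-Hochberg adjustment). The WT diet effect, the KO diet effect and their difference came from 15 fed mice in 4 groups, and the difference between fed and fasted from 15 WT mice. SE values derive from the F statistic, and intervals are 95% confidence intervals. CPM values are TMM-scaled and not divided by gene length, so that levels are not compared between genes. A count of 0 allows up to 3 counts, and such limits cover counting error only. Alternatives were RLE scaling, no low-count filter, 10 counts in every mouse, DESeq2 1.42.0, limma 3.58.1 voom, other sets of mice, lane terms and leaving out single mice. Simulated counts were used to test the scripts.

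The mice, the 23 gene lists and the lists of cell type markers were chosen with earlier results of these data known. The genes named are up to 15 in each direction past an adjusted p of 0.05 (filled to 10), list members past it or with an unadjusted p below 0.01 or high level, Acadm, and up to 5 in each direction of an interaction. Some genes that this rule names are not reported here. Replicate mice were compared by their counts in 9 pairs, and none agreed within counting noise (chi-square per gene 5.86 to 20.5). Promoters were read from a RefSeq table of GRCm38.p6.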

Additional observations from a re-analysis of the deposited data

Results flagged for a closer look

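In 172 groups of 4 mice, the gap between the most extreme mouse and its neighbour was set against the range of the group. It exceeded the 95% critical value of Dixon's test, which chance passes in about 1 in 20 groups, in 9. WT HF fed replicate 4 was the highest HF mouse for skeletal muscle markers (0.998 of the range, 902 CPM), for heart markers (0.974, 35.1 CPM) and for Gpat3 (0.962, 12.03 CPM against 4.92 to 5.196 CPM). Replicate 2 of the same group was the lowest for Eci1 (0.941, 142 CPM) and Gsta4 (0.879, 12.9 CPM). Replicate 1 was the highest for Igf1 (0.915, 984 CPM) and Mir122 (0.846, 1.998 CPM). Replicate 3 was the highest for liver endothelium markers (0.906, 428 CPM). Outside the WT comparison, KO LF fed replicate 4 was the highest for Aldh3a2 (0.832, 161 CPM).

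The diet effect differed between fed and fasted WT mice, by a test of the difference itself, with a higher fed effect in Slc16a5 (3.996 on the log2 scale), Cyp4a31 (3.503), Acnat2 (2.65), Mat1a (2.39), Gpt2 (1.47), Nr1i3 (1.10) and Ttpa (0.99). It was lower in the fed state in Hsd3b5 (-4.89), Nudt7 (-2.10), Keg1 (-2.10), Akr1c6 (-1.47) and Nat8f1 (-1.44). Lane was nearly confounded with diet in the fed mice only, so that these differences cannot be fully told apart from lane.

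WT LF fed replicate 2, which is in no comparison, had marker sums of 529 CPM for dividing cells, 622 CPM for lipid-associated macrophages, 1492 CPM for hepatic stellate cells and matrix and 339 CPM for bile duct and gallbladder. The 7 mice compared had at most 63.5, 162, 709.9 and 108 CPM.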

How the results depend on the processing

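The 21 genes had 435 values under alternative settings. None reversed, 296 were past the threshold and 139 were not, and Gm6166 passed in each of the 20 it was tested in. The 21 genes of the WT comparison became 118 without a low-count filter, 70 by DESeq2, 9 in a model of 8 groups over 30 mice, 13 with WT LF fed replicate 2 included and 54 in the lane 8 mice alone, where the lone WT HF mouse was assumed to vary like the other groups. They were 15 to 29 with RLE scaling, 10 counts in every mouse, limma voom, the 7 mice alone and a lane term (15 or 7 mice). Leaving out single mice gave 5 to 44. The 45 genes of the KO comparison became 200 without a filter, 126 by DESeq2, 18 by limma voom, 1 over 30 mice, 12 with WT LF fed replicate 2 included, 5 in the lane 8 mice and 23 without KO HF fed replicate 1. For the difference between WT and KO, 7 genes passed without a filter, 1 by DESeq2 and 8 in the lane 8 mice, against 0. For the difference between fed and fasted, 93 passed without a filter, 111 by DESeq2, 4 with WT LF fed replicate 2 included and 15 to 73 without single mice, against 33. Without both libraries that carried skeletal muscle RNA, an alternative chosen after seeing the data like the one without KO HF fed replicate 1, 16 genes passed in WT. The causes were not tested.

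With the replicate number as a replicate block, 34 genes passed in WT, 19 of them among the 21. Mice with the same number did not deviate together (r = 0.0529, 0.0412 and 0.0258 for numbers 1, 3 and 4), so that the number does not pair them. Under the block 57 genes passed in KO, 0 for the difference between WT and KO and 29 for that between fed and fasted. The block also turned the sign of Aldh1l1 (0.015).

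Of 483 list medians under alternatives, 458 stayed within 1 SD of the spread between mice. Those that moved were 0.30 for drug-metabolizing Cyp genes without a filter, 1.31 for female-biased liver genes with 10 counts in every mouse, 0.072 for immediate early and heat shock genes with limma voom and 0.26 for drug-metabolizing Cyp genes with 30 mice. With WT LF fed replicate 2 included they were 0.29 for bile acid genes, 0.14 for apolipoproteins, 0.29 for drug-metabolizing Cyp genes, 0.26 for phase II conjugation, 0.18 for female-biased liver genes, 0.066 for the unfolded protein response and 0.066 for acute phase proteins. With a lane term they were 0.092 for apolipoproteins and 0.27 for drug-metabolizing Cyp genes over 15 mice and 0.25 for drug-metabolizing Cyp genes and 0.27 for phase II conjugation over 7, and in the lane 8 mice alone 0.24 for drug-metabolizing Cyp genes and 0.28 for phase II conjugation. Without single mice the medians ranged from -0.042 to 0.039 for apolipoproteins, -0.25 to -0.13 for mitochondrially encoded, -0.16 to 0.37 for circadian clock, -0.78 to 0.17 for immediate early and heat shock genes and -0.13 to 0.062 for the unfolded protein response.

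Signs turned only in genes that had not passed. With WT LF fed replicate 2 included these were Cyp4a31 (-0.030), Gpat3 (-0.65), Cyp3a11 (-0.074), Dgat2 (0.11), Aldh1l1 (0.13), Sod1 (0.14), Mup3 (0.15), Hsp90b1 (0.011) and Nat8f1 (0.21). A lane term over 15 mice turned Elovl5 (0.24), Aldh1l1 (0.11) and Hspa5 (-0.038), one over 7 mice Elovl5 (0.22), Aldh1l1 (0.047), Hspa5 (-0.10) and mt-Rnr2 (0.029), and the lane 8 mice alone Elovl5 (0.21), Aldh1l1 (0.038), Hspa5 (-0.11) and mt-Rnr2 (0.020). Without both libraries with skeletal muscle RNA, Acsl1 (-0.030), Sod1 (0.044) and Akr1c6 (-0.029) turned, and the median of mitochondrially encoded genes was -0.25. Leaving out single mice gave log2 fold changes of -0.19 to 0.26 for Hspa5, -0.32 to 0.23 for Elovl5, -0.15 to 0.070 for Aldh1l1, -0.14 to 0.063 for Sod1, -0.030 to 0.19 for Acsl1, -0.029 to 0.18 for Akr1c6 and -0.23 to 0.022 for Hsp90b1. Differences in genes removed by the low-count filter are not covered by the main results, and such genes had few reads at this depth.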
